A study of Sus scrofa with 8 samples.

Results

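The genes described here are the paralogous coactivators YAP1 and WWTR1 (which encodes TAZ), the transcription factor genes TEAD1, TEAD2, TEAD3 and TEAD4, and the regulators and known target genes ANKRD1, AMOTL2, LATS2 and AJUBA, in embryonic fibroblasts of the pig. They were chosen by name as members of one pathway, and all 10 were found among the 19487 protein-coding genes that RefSeq annotates on chromosomes 1 to 18 and X of the Sscrofa11.1 assembly. Chromatin immunoprecipitation sequencing (ChIP-seq) had been carried out for H3K4me3 (a histone mark of active promoters), H3K27ac (a mark of active promoters and enhancers) and CTCF (a factor that binds insulators and loop anchors), with 2 replicates each and 2 input libraries, 1 for both histone marks and 1 for CTCF. The cells were taken from Large White fetuses at an age of 35 days and were kept for 24 h in serum-containing medium. Every library was of this one untreated cell type, so there were no conditions to compare, and the labels do not say whether the replicates came from separate fetuses or cultures or whether fetuses were pooled. Genotype and sex are not given in the labels. The spread between 2 replicates may therefore be technical.

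In the Hippo pathway, the kinases MST1 and MST2 activate the kinases LATS1 and LATS2, which phosphorylate YAP and TAZ and keep them in the cytoplasm. Unphosphorylated YAP and TAZ enter the nucleus and bind TEAD factors, which recognise the word GGAATG in DNA. Such TEAD sites often lie in distal enhancers shared with AP-1 factors, whose binding word is TGANTCA. Fibroblasts spread on a stiff culture surface are known for high nuclear YAP and TAZ, and several target genes, LATS2, AMOTL2 and AJUBA among them, encode regulators of the pathway itself.

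The sequences below were chosen because they carry the words by which TEAD and AP-1 factors are recognised, at the one member promoter without a peak that held the TEAD word and at regions with H3K27ac around the coactivator genes, TEAD1 and ANKRD1. They were read from the Sscrofa11.1 assembly. Capitals mark GGAATG or its reverse complement CATTCC, and TGANTCA (a word that reads as TGANTCA on both strands). The first is the 250 bp before the start of ANKRD1, printed along the minus strand on which the gene lies (chr14:102612858-102613107), and it holds GGAATG at both places marked.

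ANKRD1 upstream: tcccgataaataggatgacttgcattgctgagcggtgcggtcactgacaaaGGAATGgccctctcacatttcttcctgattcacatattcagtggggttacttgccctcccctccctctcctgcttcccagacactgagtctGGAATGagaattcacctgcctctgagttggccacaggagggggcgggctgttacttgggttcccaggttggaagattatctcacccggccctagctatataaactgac

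The next 4 lie within 200 bp of the H3K27ac summit of replicate 1 in regions described further down, and are printed along the plus strand. They are at chr9:32766358-32766395 (45.6 kb upstream of YAP1), chr13:89805642-89805742 (85.8 kb into WWTR1), chr14:102620496-102620599 (7.06 kb upstream of ANKRD1) and chr2:46687060-46687131 (17.3 kb upstream of TEAD1), where the distance is that of the region's midpoint. None of them overlaps an annotated exon, and the WWTR1 stretch is intronic.

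YAP1 upstream: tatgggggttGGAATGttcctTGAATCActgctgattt
WWTR1 intron: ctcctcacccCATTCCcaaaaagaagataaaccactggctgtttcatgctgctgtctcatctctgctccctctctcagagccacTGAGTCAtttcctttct
ANKRD1 distal: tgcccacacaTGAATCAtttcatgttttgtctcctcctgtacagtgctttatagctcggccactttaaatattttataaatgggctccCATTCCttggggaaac
TEAD1 upstream: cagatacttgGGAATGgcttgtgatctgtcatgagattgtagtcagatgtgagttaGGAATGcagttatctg

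Among the 250 bp upstream of the 10 members, GGAATG was found on either strand at ANKRD1 and AJUBA (1 word, at -241 bp), that is at 2 of 10, beside 10.3% of 19486 protein-coding genes with a full window. The words of ANKRD1 began at -199 and -108 bp. The upstream windows differed in composition, with a GC content of 81.6% at TEAD1, 81.2% at LATS2, 78.8% at YAP1 and 72.4% at WWTR1, where the median over protein-coding genes was 57.6%. ANKRD1 had the lowest GC content of the 10, 52.4%, and 5 CpG dinucleotides, while the windows of TEAD3 and TEAD4 held 3 each and that of LATS2 held 42.

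The deposited peak lists held 37932 and 43516 peaks for H3K4me3, 74983 and 81164 for H3K27ac and 40289 and 44682 for CTCF (replicates 1 and 2). Regions with overlapping peaks of both replicates numbered 33038, 61478 and 37874. Values are the fold enrichment over input that the authors' peak caller gave at each peak's summit, and they were compared within a mark only. H3K4me3 values at the members' starts were higher in replicate 1 than in replicate 2, as were those at protein-coding starts in general, with medians of 52.2 and 25.4 at protein-coding starts, against 16.5 and 19.6 for H3K27ac and 17.6 and 21.5 for CTCF. Read counts behind the peaks are not in the lists, so the depth of each value is unknown. As a check of the cell type, 10 of 10 fibroblast genes (COL1A1, COL1A2, VIM and others) carried both histone marks in both replicates within 1 kb of the start, against 0 of 6 epithelial, 0 of 5 blood, 0 of 4 endothelial, 0 of 3 muscle and 0 of 3 annotated neural genes. The 0 counts rest on asking for both marks. Single marks were found at some of these genes: H3K4me3 without H3K27ac at EPCAM (mean 31.6), ESRP1 (25.7), KDR (19.3) and others. SPI1 (14.7) and MYOG (6.16) had H3K27ac without H3K4me3, and SOX2 had H3K4me3 (21.4) with a low mean H3K27ac (1.39).

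At their annotated starts, 8 of the 10 genes carried H3K4me3 in both replicates and the same 8 carried H3K27ac, that is all but TEAD4 and ANKRD1. A gene counted when a peak of each replicate had its nearest base within 1 kb of the RefSeq start of the gene. By the same rule 68.9% of all protein-coding genes counted for H3K4me3, 60.7% for H3K27ac and 58.9% for both. CTCF counted at 2 of 10, WWTR1 and AJUBA, against 17.9%. The members' counts were close to these shares, and no test was made. In level, 6 of the 10 genes stood above the protein-coding median for H3K27ac, TEAD3 among them by summits over 1 kb upstream of its start. LATS2 and AJUBA lay below the median and TEAD4 and ANKRD1 had no peak. The 8 with a peak had a median fold enrichment of 35.6, against 18.1 over the 11830 protein-coding genes with one, while for H3K4me3 the medians were 40.2 and 39.4. The median widths of their peaks were 6.97 against 2.49 kb for H3K27ac and 5.62 against 2.85 kb for H3K4me3, with LATS2 the narrowest for both, at 1.83 and 3.17 kb.

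**Figure D1:**
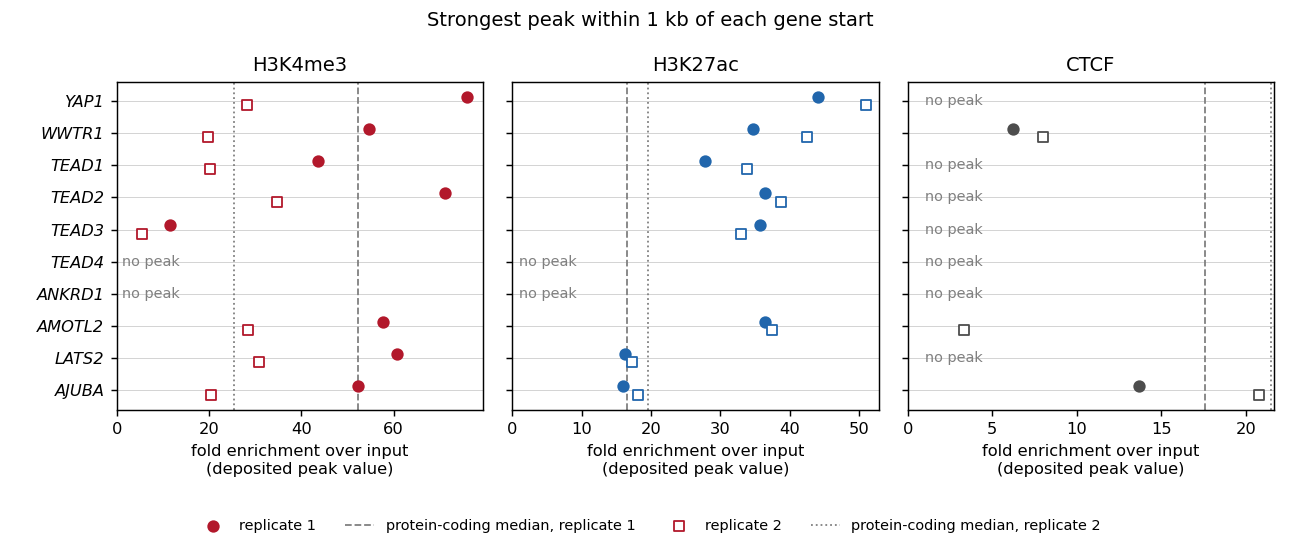
Fold enrichment over input of the strongest peak within 1 kb of each gene start (x axis, linear, 1 panel per mark), with a filled circle for replicate 1 and an open square for replicate 2, and the median of protein-coding genes with a peak in both replicates as a dashed (replicate 1) or dotted (replicate 2) line. For H3K27ac, 6 genes lie to the right of both lines in both replicates, LATS2 and AJUBA lie near them, and TEAD4 and ANKRD1 have no peak.

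YAP1, the first of the coactivator genes, lies on the plus strand of chromosome 9 (chr9:32811629-32924926). Its H3K27ac peak at the start had a fold enrichment of 44.1 in replicate 1 and 51.1 in replicate 2 (mean 47.6 ± 4.92 SD, n = 2), and the mean was higher than at 99.6% of protein-coding genes with such a peak. Both replicates placed YAP1 in the same range, at the percentiles 99.4 and 99.3. The H3K4me3 values were 75.9 and 28.1 and placed it at the percentiles 93.0 and 61.2, so its standing in H3K4me3 differed between the replicates. The H3K27ac peak was 8.62 and 7.12 kb wide and lay mostly inside the gene, and the start of a long non-coding RNA gene, LOC102157672, lies 3 bp away, so that the 2 promoters share the peak.

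WWTR1 encodes TAZ and lies on the minus strand (chr13:89742980-89889547). Its H3K27ac values at the start were 34.8 and 42.5 (mean 38.7 ± 5.43 SD, n = 2, percentile 96.5), and those for H3K4me3 were 54.7 and 19.7. WWTR1 lay below YAP1 in both replicates of both histone marks, and for H3K27ac the replicate ranges of the 2 genes did not overlap. WWTR1 was also one of the 2 genes with CTCF near the start, with 6.21 and 7.98. Those CTCF peaks lay 962 and 857 bp upstream of the start, and did not cover it, and 87.1% of the protein-coding genes with CTCF in both replicates had a mean at least as high.

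Over the 6 libraries, the protein-coding genes with start values most like those of YAP1 were YWHAZ (73.2 and 27.8 for H3K4me3, 40.8 and 51.4 for H3K27ac, no CTCF), with a Euclidean distance of 0.124 on the log2(fold enrichment + 1) scale, and LOC106507601 and PLAUR, both at 0.149. Those nearest to WWTR1 were BCCIP and UROS at 0.364 and LOC100620992 at 0.387. LOC106507601 and PLAUR shared the same peaks, as did BCCIP and UROS. The 6 values are pairs of replicates of 3 marks, so the measure rests on few independent points.

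The 4 TEAD genes, whose products bring YAP and TAZ to DNA, ranged from strong peaks of both histone marks to none at the start. TEAD2, on the minus strand (chr6:54448183-54462325), had 36.5 and 38.7 for H3K27ac and 71.2 and 34.6 for H3K4me3, and TEAD1, also on the minus strand (chr2:46396490-46670619), had 27.8 and 33.9 and 43.5 and 20.1. Both had a wide peak of each mark over the start. In level, the mean H3K4me3 stood at percentile 88.6 for TEAD2. For TEAD1 it stood at 30.5, below the protein-coding median in both replicates. The start of DKKL1 lies 42 bp from that of TEAD2 and that of the long non-coding RNA gene LOC102164222 lies 946 bp from that of TEAD1, and the peaks cannot be assigned to one of the genes.

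TEAD1 is the one TEAD gene with transcript starts far apart, 10 distinct starts that fall into 4 groups, at the gene start and 3.27, 45.9 and 77.4 kb into the gene. The first pair of groups lay under the same peaks. At 45.9 kb there was H3K27ac of 5.41 and 6.18 and no H3K4me3, and at 77.4 kb a single H3K27ac peak of 3.62 in replicate 1 only. H3K4me3 in both replicates was therefore found at the upstream starts of TEAD1 and not at the internal ones. LATS2 likewise had no peak of any mark at a second start 11.6 kb into the gene.

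TEAD3, on the minus strand (chr7:31337890-31351452), had low H3K4me3 at its annotated start, under an H3K27ac peak whose high value came from upstream. H3K4me3 was 11.6 and 5.44, a mean that 95.9% of protein-coding genes with a peak reached or exceeded, while H3K27ac was 35.7 and 33.0 (mean 34.3 ± 1.92 SD, n = 2). The H3K27ac summits lay upstream, by 10754 bp in replicate 1, where 1 peak 14.1 kb wide covered the whole stretch, and by 2062 bp in replicate 2, so the H3K27ac value is not that of the start itself. A region with strong H3K4me3 stood 9.51 kb upstream of the start (chr7:31358125-31363802), with 62.5 and 30.9 for H3K4me3 and 35.7 and 44.6 for H3K27ac, and its nearest annotated transcript start was 6.67 kb away.

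TEAD4, on the minus strand (chr5:67130392-67167579), had no peak of any of the 3 marks within 1 kb of its annotated start in any of the 6 libraries. Upstream of it, centred at 26.4 kb (chr5:67192474-67195552), stood a region 3.08 kb wide with H3K4me3 of 65.6 and 33.3 and H3K27ac of 16.6 and 22.2, with no annotated transcript start within 24.9 kb. Its H3K4me3 was higher than in 92.8% of all shared H3K4me3 regions, and than in 99.6% of the 18467 shared regions that lay over 1 kb from every annotated transcript start. In the annotation used, TEAD3 and TEAD4 have 1 transcript each, with a 5′ untranslated region of 0 and 25 bp. This is not particular to them. YAP1 also has 1 transcript with 0 bp and TEAD1 has at most 15 bp at its gene start, and both genes carried strong peaks there. Whether the upstream regions are starts of TEAD3 and TEAD4 was not tested.

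The regions at TEAD3 and TEAD4 were singled out after their values were seen. Of the shared H3K4me3 regions within 100 kb of the 10 genes, 42 lay over 1 kb from every annotated transcript start, and 35 of the 42 overlapped H3K27ac of both replicates, where genome-wide 69.6% did. Most were weak, and 6 had a mean fold enrichment over 24: those just described, 1 lying 37.9 kb downstream of the start of TEAD3 (78.4 and 33.7), 1 lying 29.2 kb upstream of LATS2 (75.7 and 35.4, 2.84 kb from the nearest transcript start) and 2 near AJUBA (61.0 and 41.4 at 84.9 kb upstream, 31.7 and 18.1 at 81.1 kb downstream). The next highest of the 42, 33.2 kb upstream of AMOTL2, had 28.4 and 15.7 and no H3K27ac. The median over all shared regions away from starts was 5.63.

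LATS2 and AJUBA, which encode a kinase that inhibits YAP and TAZ and a LIM protein that inhibits LATS kinases, stood at the middle of the protein-coding genes for H3K27ac. LATS2, on the minus strand (chr11:1225523-1265970), had 16.2 and 17.3 (percentile 44.6), and AJUBA, on the plus strand (chr7:76063009-76072884), had 16.0 and 18.1 (percentile 45.7). Their H3K4me3 was 60.8 and 30.8 for LATS2 (percentile 70.3) and 52.3 and 20.3 for AJUBA (percentile 41.0). AJUBA was the other gene with CTCF near the start, with 13.7 and 20.8 in peaks 403 and 350 bp upstream of it.

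AMOTL2, which encodes a junctional protein of the angiomotin family that binds and retains YAP, had the broadest H3K27ac of the 10 at its start. It lies on the minus strand (chr13:75490936-75507360). Its H3K27ac values were 36.5 and 37.4 (mean 36.9 ± 0.645 SD, n = 2), in a peak 27.1 kb wide in each replicate that covered the whole 16.4 kb gene and ran beyond its end. A stretch at least as wide was found at 0.245% of the protein-coding genes with H3K27ac at the start. H3K4me3 was 57.8 and 28.5 in a peak of 9.55 and 9.52 kb, wider than at 98.6% of genes. A CTCF peak near the start of AMOTL2 was found in replicate 2 only (3.35).

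ANKRD1, a cardiac ankyrin repeat gene widely used as a readout of YAP and TAZ activity, had no peak of any mark within 1 kb of its start. It lies on the minus strand (chr14:102603777-102612857). Although its upstream window held GGAATG at 2 places, the nearest H3K27ac regions shared by both replicates were centred 6.16 kb into the gene, with 5.51 and 5.25, and 7.06 kb upstream, with 6.15 and 3.93. A stronger region stood at 13.0 kb upstream, with 12.5 and 15.2. None of the 3 lies within 1 kb of an annotated gene start, and whether any of them acts on ANKRD1 was not tested.

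The genes were ranked by the mean H3K27ac fold enrichment of the strongest peak within 1 kb of the start. The order was YAP1, WWTR1, TEAD2, AMOTL2, TEAD3, TEAD1, AJUBA and LATS2, with means from 47.6 to 16.7. For TEAD3 the value is that of summits upstream of the start. The replicate ranges did not overlap between YAP1 and WWTR1, between AMOTL2 and TEAD3 or between TEAD1 and AJUBA, and they overlapped between all other neighbours in the order. The largest gap lay between TEAD1 (27.8 and 33.9) and AJUBA (16.0 and 18.1). For H3K4me3, where replicate 1 was higher throughout, the ranges of all neighbours by mean overlapped down to TEAD1. Taken replicate by replicate, LATS2 stood above AMOTL2, AMOTL2 above WWTR1 and AJUBA above TEAD1 in both. The order of TEAD2 and YAP1, of YAP1 and LATS2 and of WWTR1 and AJUBA differed between the replicates. TEAD3 alone stood apart, below the other 7 in both replicates.

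**Figure D2:**
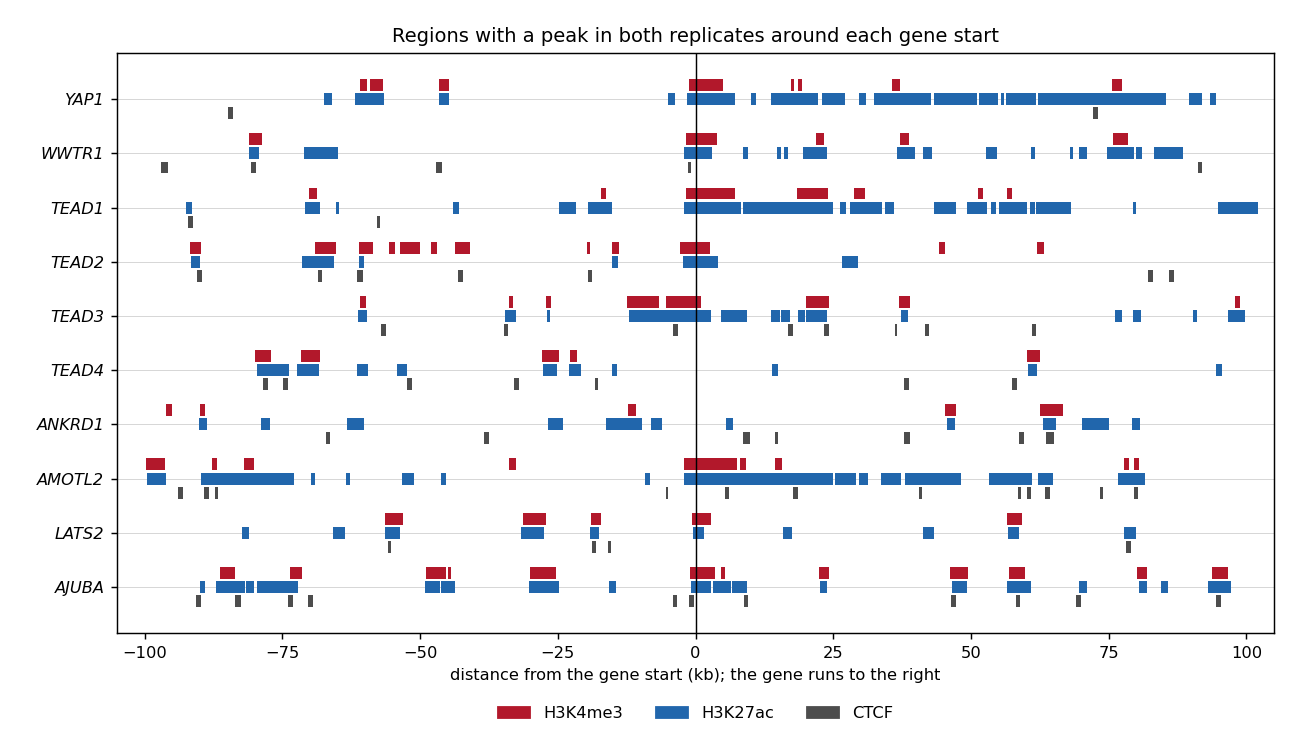
Regions with overlapping peaks of both replicates whose midpoint lies within 100 kb of each gene start, drawn by distance from the start in kb (x axis, the gene runs to the right) with H3K4me3 above, H3K27ac in the middle and CTCF below in each row. Bars are to scale except that regions under 0.4 kb are drawn 0.4 kb wide. The rows of YAP1, TEAD1 and AMOTL2 are the most filled with H3K27ac, and TEAD4 and ANKRD1 have none at 0.

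H3K27ac cover around the starts was highest at YAP1, AMOTL2 and TEAD1. Within 100 kb on both sides, the peaks of this mark covered 88.2 and 82.4 kb around YAP1, 83.8 and 87.3 kb around AMOTL2 and 69.7 and 74.2 kb around TEAD1 (replicates 1 and 2). The means of YAP1 (85.3 kb) and AMOTL2 (85.6 kb) were higher than at 99.4% of protein-coding genes. The lowest cover was found at TEAD2, 16.1 and 19.2 kb. Over the 10 genes the median cover was 38.7 kb and over all protein-coding genes 14.7 kb, and all 10 lay above the latter, TEAD2 (percentile 56.3), LATS2 (62.9) and TEAD4 (65.5) by the least. By the number of shared regions the medians were 14.5 and 7, and 9 of 10 lay above it, TEAD2 with 6 regions being the exception. Cover was added as a measure after the values were seen.

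For H3K4me3, 6 of the 10 genes lay above the protein-coding median by the number of regions within 100 kb (medians 7.5 and 5) and 9 of 10 by cover (medians 19.0 and 10.4 kb). For CTCF it was 6 of 10 by number (medians 7 and 5) and 7 of 10 by cover (medians 5.65 and 3.93 kb). CTCF regions ranged from 2 at YAP1 and TEAD1 to 12 at AMOTL2 and 11 at AJUBA. Gene density differs among the loci: the starts of 11 other annotated genes lie within 100 kb of TEAD2 and of AJUBA and 1 within 100 kb of TEAD1. At AJUBA 8 of its 18 H3K27ac regions lay within 1 kb of the start of another gene, and at TEAD1, beyond its own start, none of its 19 did, so the number of regions is not a number of enhancers of the named gene.

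**Figure D3:**
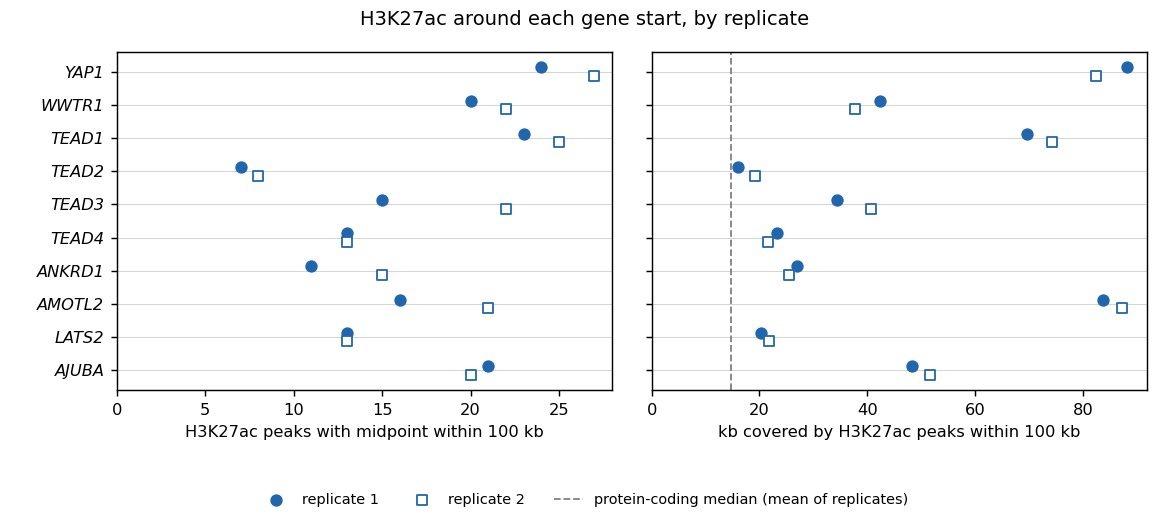
H3K27ac within 100 kb of each gene start, as the number of peaks with their midpoint in the window (left) and as the kb covered by peaks (right), with a filled circle for replicate 1 and an open square for replicate 2. The dashed line in the right panel is the median over protein-coding genes, 14.7 kb, and all points lie to its right.

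Within gene bodies, farther than 1 kb from the gene start, the 3 long genes held nearly all regions. TEAD1 (274 kb) held 33 shared H3K27ac regions, WWTR1 (147 kb) held 18 and YAP1 (113 kb) held 15, and the other 7 genes, of 9.08 to 40.4 kb, held 0 to 2 each. A region that reached within 1 kb of the start was not counted. AMOTL2 therefore held 0, although its H3K27ac peak of 27.1 kb covers the whole gene. Per 100 kb of gene, the 3 long genes were alike, with 12.0 in TEAD1, 12.3 in WWTR1 and 13.2 in YAP1. TEAD1, the lowest of them, was higher than 93.9% of protein-coding genes, whose median was 0. Of the shorter genes, AJUBA had 20.3 per 100 kb from 2 regions and ANKRD1 11.0 from 1. That 1 region placed ANKRD1 at percentile 92.5, so a high percentile does not need many regions. Shared H3K4me3 regions in the bodies numbered 9 in TEAD1, 4 in YAP1 and 4 in WWTR1, where the protein-coding median was 0, and none of these had a mean fold enrichment above 13.2.

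The strongest distal H3K27ac region with its midpoint within 100 kb of each start, and over 1 kb from any annotated gene start, was as follows for the coactivator genes and TEAD1. For YAP1 it was a stretch 23.2 kb wide, centred 73.8 kb into the gene (chr9:32873836-32897029), with 21.4 and 28.6. For WWTR1 it was intronic, 38.2 kb into the gene (chr13:89849652-89853040), with 17.2 and 19.1. Beyond 100 kb, at 124 kb into WWTR1 (chr13:89762613-89768605), a stronger region of 20.7 and 21.4 stood within the gene. For TEAD1 it lay 17.3 kb upstream (chr2:46685720-46690108), with 26.9 and 26.1, and held both GGAATG words of the sequence printed for TEAD1. The strongest region within 100 kb of each of the 3 also overlapped a shared H3K4me3 region, and the percentiles among the 49897 distal H3K27ac regions were 97.9, 94.5 and 98.4.

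Among the regulators, the strongest distal region near AMOTL2, 81.3 kb upstream, had 35.6 and 31.0 and was higher than 99.4% of distal regions. The one near LATS2, 29.6 kb upstream, had 23.9 and 23.4, and the one near AJUBA, 84.4 kb upstream, had 17.0 and 18.6. Both overlapped strong H3K4me3 regions described above, which lay 2.84 and 2.75 kb from the nearest annotated transcript start. The one near AJUBA also overlaps an exon of another gene, ACIN1. For TEAD4 the region at 26.4 kb upstream described above was also the strongest in H3K27ac, with 16.6 and 22.2. TEAD3 had 9.44 and 20.8 at 38.0 kb downstream of its start, and TEAD2 had the weakest of the 10, 4.96 and 5.96 at 28.0 kb. The stronger H3K27ac upstream of TEAD3 was joined to the region at its start and was not counted as distal. TEAD2 had only 1 distal region. Nearness does not assign a region to a gene, and no contact data were used here.

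Taken singly, the TEAD and AP-1 words were about as frequent in the distal H3K27ac regions around these genes as in those of the genome. GGAATG was found on either strand within 200 bp of the replicate 1 summit in 32 of 132 regions (24.2%, 95% Wilson interval 17.7 to 32.2%), against 21.5% of 49897 distal regions. TGANTCA was found in 26 (19.7%, interval 13.8 to 27.3%) against 18.7%, and both words in 9 (6.82%, interval 3.63 to 12.5%) against 4.09%. Each genome-wide share lies inside the members' interval. The intervals treat the regions as independent, although 39 of the 132 came from TEAD1, 19 from WWTR1 and 18 from YAP1. In windows of the same length 2 kb to either side of all summits the shares were 19.5% for GGAATG, 13.0% for TGANTCA and 2.64% for both. In the 264 such windows beside the members' own summits they were 18.2%, 11.4% and 2.65%.

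The 9 regions with both words were spread over 5 genes, 3 at WWTR1, 2 at YAP1, 2 at ANKRD1 and 1 each at TEAD4 and AMOTL2. The region 45.6 kb upstream of YAP1 had H3K27ac of 14.7 and 18.0, and in its sequence printed above the words stand 5 bp apart. It also carried H3K4me3 of 30.1 and 14.1 and lies within 1 kb of a transcript start of the neighbouring gene C9H11orf70. The WWTR1 region at 85.8 kb, whose sequence is printed above, had 11.9 and 13.2. The ANKRD1 region at 7.06 kb upstream was weak, with 6.15 and 3.93. TEAD1, with 39 distal regions the most of all, had GGAATG in 7, TGANTCA in 6 and both in none. A word is a match of letters and not a bound site, and no TEAD or AP-1 binding was measured.

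The distance to CTCF varied widely among the genes. From the start to the nearest shared CTCF region, the median was 12.5 kb for the 10 genes and 10.9 kb for all protein-coding genes. The shortest distance was 0.734 kb at AJUBA and the longest 72.6 kb at YAP1. YAP1 thus had 2 CTCF regions within 100 kb, 1 on each side of its start. The upstream one, 84.4 kb away, was among the strongest in the genome, with 68.5 and 71.9 (percentile 99.0), and the one inside the gene had 10.9 and 11.5. TEAD1 had no CTCF downstream of its start within 100 kb, the first lying 190 kb into the gene.

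Of the 20 nearest CTCF regions, 1 on each side of each gene, 7 held a CTCF core word on either strand within 50 bp of the replicate 1 summit, against 49.1% of all 37874 shared CTCF regions and 6.04% of windows of the same length 2 kb away. Of the core words searched, the first was AGGGGGC, the second was AGGTGGC, the third was AGATGGC and the fourth was AGAGGGC. Both flanking regions held one at TEAD2 and at TEAD4. Those of TEAD2 are shown because each holds a single word, which, read 5′ to 3′, pointed away from the gene. They are the upstream one at 19.2 kb, with a CTCF fold enrichment of 18.9 and 26.0, printed along the plus strand (chr6:54481529-54481575), and the downstream one at 82.5 kb, with 21.5 and 26.8, printed along the minus strand (chr6:54379786-54379832). Capitals mark the core word.

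TEAD2 CTCF upstream: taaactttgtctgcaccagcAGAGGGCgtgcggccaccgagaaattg
TEAD2 CTCF downstream: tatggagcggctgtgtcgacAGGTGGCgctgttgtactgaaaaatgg

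The strongest CTCF region nearest to a TEAD gene lay 38.3 kb downstream of the start of TEAD4, just past the gene's end, with 50.9 and 40.9, and its core word pointed towards the gene. The CTCF region 18.0 kb upstream of TEAD4, with 8.36 and 9.46, held core words on both strands. At ANKRD1 the nearest CTCF region, with 30.4 and 39.0, overlapped the end of the gene, 9.27 kb from the start. CTCF at AMOTL2 was near but weak, with 5.86 and 5.42 at 5.16 kb upstream and 6.15 and 8.93 at 5.72 kb downstream.

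A wider list of 36 Hippo pathway genes, all annotated, gave the setting. H3K4me3 was found at the start of 33, H3K27ac at 33, both at 32 and CTCF at 12, in both replicates, where the shares over protein-coding genes were 68.9%, 60.7%, 58.9% and 17.9%. All 14 kinases and scaffolds and all 9 further target genes carried both histone marks. Among the genes with a peak, the median H3K27ac fold enrichment was 26.1 in the kinases and scaffolds, 23.8 in the targets, 14.0 in the adaptors and inhibitors and 12.5 in the surface proteins. For the adaptors and inhibitors these were 6 of 9 genes. The 3 genes without H3K4me3 were PTPN14, a phosphatase that binds YAP, VGLL1, a TEAD cofactor, and FAT1, an atypical cadherin that had H3K27ac with a mean of 6.66. VGLL2, named here for its value, had H3K4me3 (34.6 and 21.4) and CTCF but no H3K27ac.

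The highest mean H3K27ac of the list was at CCN1, a secreted matrix protein and classic YAP target annotated under its older symbol CYR61, with 38.6 and 51.1. It was followed by LATS1 (33.1 and 38.3), STK3, which encodes MST2 (33.0 and 37.3), and FRMD6, an upstream FERM protein (31.8 and 37.6). None of the 36 had a higher mean than YAP1. CCN2, the other matrix protein commonly read as a YAP target, had 16.6 and 16.2, near the protein-coding median. The targets thus ranged from no mark at the start (ANKRD1) to values near those of YAP1 (CCN1).

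**Figure D4:**
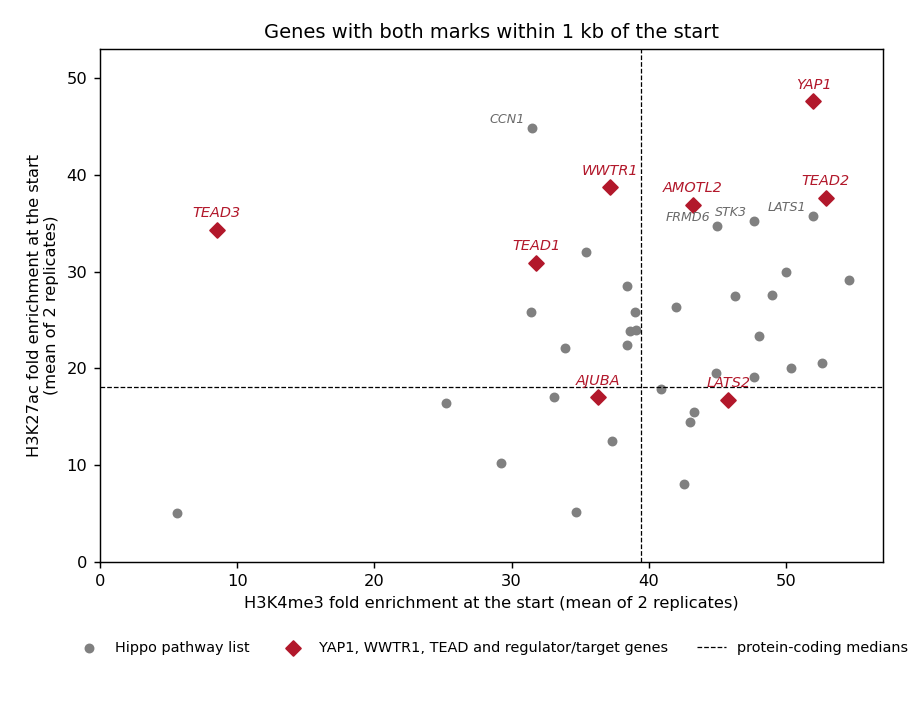
Mean fold enrichment at the start for H3K4me3 (x axis) and H3K27ac (y axis), over 2 replicates each, for the genes with both marks: diamonds are 8 of the 10 genes described here and grey points are 32 genes of the Hippo pathway list, with the 4 highest in H3K27ac named. Dashed lines are the protein-coding medians, 39.4 and 18.1. YAP1 is at the top right, and TEAD3 lies far to the left at high H3K27ac, a value from summits upstream of its start.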

How the data were processed

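Peak lists of ChIP-seq for H3K4me3, H3K27ac and CTCF in pig embryonic fibroblasts were used, 2 replicates per mark, with each library in a list of its own. Per the study's methods and the submitters' processing notes, reads were aligned to Sscrofa11.1 with Bowtie2, duplicates were removed and peaks were called against input with MACS2 (versions not given in the sources used here). The authors deposited, for each peak, its interval and summit, a display score, the fold enrichment over input at the summit as a linear ratio, and the −log10 p-value and −log10 q-value. The methods state a q-value of 0.01, while the lists hold q-values up to 0.0499. One input served both histone marks. The lists carry no read counts, so the depth behind each peak is unknown and no interval for a peak could be given.

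Gene starts and transcripts came from the RefSeq annotation of the same assembly, restricted to chromosomes 1 to 18 and X, with pseudogenes left out. A member counted for a mark when a peak of each replicate lay within 1 kb of the gene start. Shared regions were groups of peaks of the 2 replicates linked by an overlap of at least 1 bp. A region belonged to a 100 kb window by its midpoint, and was distal when over 1 kb from every annotated gene start. A percentile is the percent of protein-coding genes, or regions, of the same kind with a lower value. Words were searched on both strands within 200 bp of the H3K27ac summit and 50 bp of the CTCF summit of replicate 1. Wilson intervals cover counting error only. Python 3.11.15, numpy 2.4.6 and scipy 1.17.1 were used, and the interval functions were tested on simulated data.

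No test between groups was made, since every library came from one untreated cell type. All 10 members were named, with, of the Hippo pathway list, the genes without H3K4me3 and the 4 with the highest H3K27ac, the 3 genes most like YAP1 and WWTR1, and each member's strongest distal region. VGLL2, CCN2 and the regions away from transcript starts were named after their values were seen. The members and lists were chosen with earlier results of these data known. Of the listed genes, CCN1 and CCN2 were found under their older symbols. Alternatives were other q-value cut-offs, distances, windows, overlaps and backgrounds, and leaving out each replicate. Input libraries and Hi-C data were not analysed here.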

Additional observations from a re-analysis of the deposited data

How the results depend on the processing

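Of 76 alternatives run on 21 counts and values, 63 were judged the same and 13 moved. Counts were judged by a factor of 1.5, while the H3K4me3 and H3K27ac background shares given below were judged moved at smaller changes. The counts of members with H3K4me3 and with H3K27ac at the start were not among those that moved. With all annotated genes as the background the shares fell from 68.9 to 60.0% for H3K4me3 and from 60.7 to 54.0% for H3K27ac. The number of members with CTCF at the start rose from 2 to 4 with a distance of 5 kb and was 0 when the peak had to hold the start itself. In 50 kb windows, which hold fewer regions by construction, the sums over the 10 genes were 42 (H3K4me3), 67 (H3K27ac) and 27 (CTCF), against 76, 136 and 65 in 100 kb. In the gene bodies a −log10 q-value of at least 5 left 13 of 20 H3K4me3 and 47 of 72 H3K27ac regions. Leaving out a replicate counts the other's peaks alone and gave 23 to 36 and 91 to 116. Within 500 bp of the summit, windows that hold more sequence, 47.7% of the members' distal regions held GGAATG and 49.2% TGANTCA, against 46.9% and 50.1% of all distal regions. No paired analysis was possible because no result comes from a test. Cover in place of the number of regions was added after the data were seen. With it the number of genes above the median went from 6 to 9 for H3K4me3, from 9 to 10 for H3K27ac and from 6 to 7 for CTCF, none of which was judged moved.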
